A study of Homo sapiens with 6 samples.

Results

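The genes described here are long noncoding RNAs (lncRNAs) named after a neighbouring gene: antisense RNAs (names ending in AS), divergent transcripts (DT), overlapping transcripts (OT) and intronic transcripts (IT). A gene was taken when the deposited table gave its type as lncRNA and its name ended in a hyphen and one of these suffixes, with or without digits. The rule used no measured level, and it found 161 of the 12227 genes in the table, among 560 lncRNA genes. By suffix, 112 were antisense, 45 divergent, 3 overlapping and 1 intronic. The gene named before the hyphen, called the partner here, was also in the table for 136 of the 161, which gave 134 different partners, since PAXIP1 and SLC9A3 each had 2 members.

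The RNA came from PC3, an established line grown from a bone metastasis of a prostate cancer. In 3 libraries the cells carried a control shRNA and were labelled wild type, and in 3 they carried an shRNA against VprBP, labelled as the knockdown. VprBP is the product of DCAF1; it hands substrates to CRL4 ubiquitin ligases and has also been described as a kinase that acts on histone H2A. The libraries are numbered sh1 to sh3 in each arm, with no word in the labels on separate hairpins, separate cultures or repeat preparations, so the p-values measure the spread between these libraries, which may be technical.

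Many human promoters are transcribed in both directions, and the RNA that leaves against the gene's direction is usually ended early and destroyed in the nucleus. Integrator and the Restrictor complex end such transcripts, and the RNA exosome, brought by the NEXT and PAXT adaptors, degrades them. Those that escape, are spliced and carry a poly(A) tail are annotated as divergent or antisense lncRNAs. Some antisense RNAs are known to act on the gene they face, others act elsewhere in the cell, and for most no function is known.

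The deposited values are reads per gene scaled so that the upper quartile was about the same in each library (78.99 to 79.02), and they are called values below. The libraries held an estimated 22981910 to 39633897 reads on listed genes. DCAF1 was 79.4, 78.5 and 78.7 in the control libraries and 38.5, 41.1 and 40.2 in the knockdown libraries, or 50.6% of control (log2 fold change −0.97, SE 0.05, limma adjusted p = 3.56e-11, and two-sided exact permutation p = 0.1, the smallest that 3 against 3 allows). All 4 prostate epithelial markers tested for were listed (summed value 1419 to 1439 in control and 1877 to 1947 in knockdown libraries); KRT8 (log2 fold change 0.71), KRT18 (0.61) and EPCAM (0.15) were called higher and CDH1 (−0.08) lower. Of 5 fibroblast markers only COL1A1 was listed (23.6 to 25.4 against 20.6 to 28.7), of 3 endothelial markers only PECAM1 (53.0 to 55.2 against 22.6 to 24.0), and of 4 leukocyte markers none. Every gene in the table reached an estimated 150 reads in at least 1 library, and 41 members reached it in 1 arm alone. Of the 35 that reached it only in the knockdown arm, 18 were called higher and 0 lower; of the 6 that reached it only in the control arm, all were called lower. A member listed through 1 arm alone had its highest estimated read number there by the listing itself, so its call is tied to the listing, and no rank or count below that includes such members supports a direction. The deepest library, with 39633897 estimated reads, is in the knockdown arm. No source used here says whether the counting used strand, and without strand, reads from a member and from a gene on the other strand over the same bases cannot be told apart. Of the 158 members with exons in GENCODE 29, 120 had at least 1 exon base opposite an exon of another gene, with a median of 7.63% of their exon bases so opposed.

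About as many members were called higher as lower, a balance that includes members listed through 1 arm alone, and most changes were small. In a limma test on log2(value + 0.5), with Benjamini-Hochberg adjustment over all 12227 genes and a threshold of 0.05, 80 of 161 members were called (49.7%), 38 higher and 42 lower. Over all genes 60.9% were called, 33.0% higher and 27.8% lower. The other 399 lncRNA genes gave 190 calls (47.6%), 94 higher and 96 lower. The median log2 fold change was −0.00 over the members and 0.02 over all genes. In these bulk libraries, fewer cells with a transcript and less of it in each cell cannot be told apart. The median size of the change, regardless of sign, was 0.26 for the members and 0.21 for all genes. Among genes with a mean value under 10 it was 0.28 for members and 0.31 for all, and from 10 up 0.24 and 0.20.

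Members were low in level, and fewer were called at low levels. Their median value was 7.15, against 35.8 over all genes. Among genes with a mean value under 10, 45 of 100 members were called (45.0%), beside 48.9% of all such genes. Among genes with a mean of at least 10, 35 of 61 members were called (57.4%), beside 63.2%. A change of at least 2-fold with a call was found for 7 members (4.35%), beside 3.71% of all genes. Under a mean value of 10 these shares were 5.00% of members and 10.7% of all such genes, and from 10 up 3.28% and 2.36%. The control and knockdown libraries did not overlap in 88 members (54.7%), beside 64.8% of all genes. By suffix, 25 antisense members rose and 31 fell, 11 divergent members rose and 11 fell, 1 overlapping transcript rose, and the only intronic transcript rose. With genes under a mean value of 5 left out, 24 members were called higher in place of 38.

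**Figure D1:**
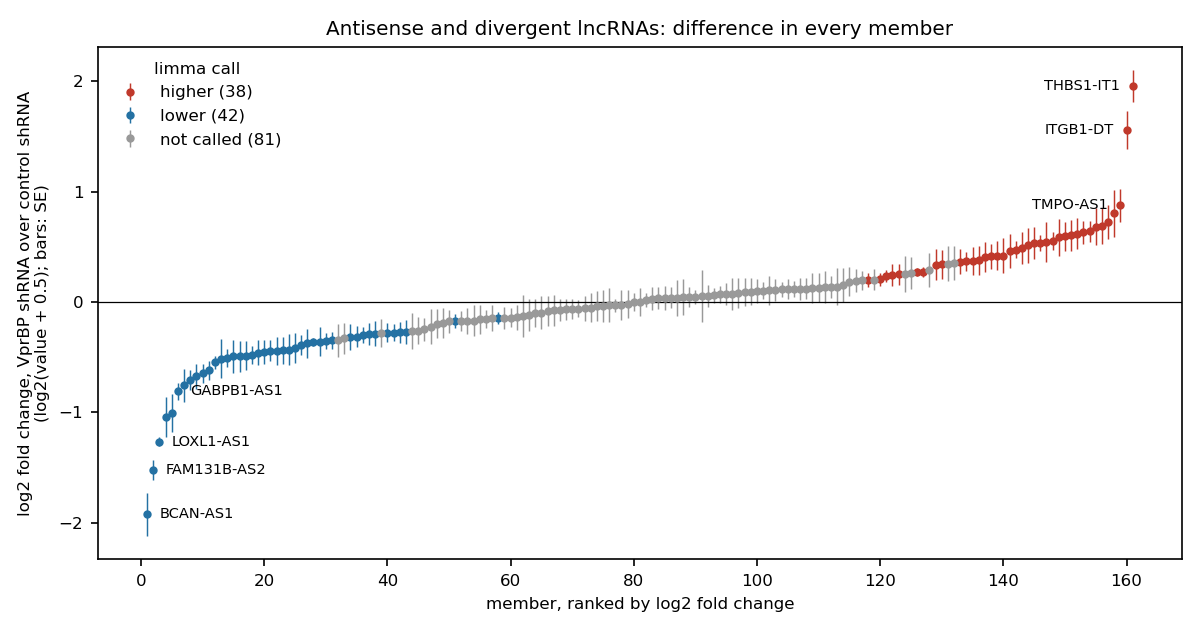
Log2 fold change (knockdown over control, on log2(value + 0.5)) of each of the 161 members, ranked from the lowest to the highest; bars are standard errors and colours give the limma call. Most members lie within 1 log2 unit of zero, with THBS1-IT1 (1.96) and ITGB1-DT (1.56) at the upper end and BCAN-AS1 (−1.93), FAM131B-AS2 (−1.52) and LOXL1-AS1 (−1.27) at the lower end.

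The largest increase was in THBS1-IT1, a single-exon transcript at chr15:39586561-39587293 (hg38, plus strand) within an intron of THBS1 and on its strand. Its values were 2.09, 1.86 and 2.42 in control and 9.79, 8.62 and 10.7 in knockdown libraries, which did not overlap (4.57-fold, log2 fold change 1.96, SE 0.14, limma adjusted p = 5.67e-09). THBS1 encodes thrombospondin-1, a secreted matrix glycoprotein that binds integrins and CD36. THBS1 rose from 622 ± 19.3 to 2587 ± 41.8 (SD, n = 3), a log2 fold change of 2.06, and the ratio of the pair did not differ (−0.10, SE 0.14, adjusted p = 0.604 in limma). By estimated reads THBS1-IT1 had 43 to 68 in control and 243 to 385 in knockdown libraries, so it is listed through the knockdown arm alone. The 733 exon bases of the intronic transcript overlap no THBS1 exon, and reads from unspliced THBS1 RNA would fall on the same bases and strand, so the transcript and unspliced THBS1 RNA cannot be told apart.

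ITGB1-DT, at chr10:32958437-33082409 on the plus strand, was the next largest. ITGB1, on the other strand, encodes the integrin beta-1 subunit, which pairs with many alpha subunits to bind matrix. The lncRNA was 1.5, 1.19 and 1.60 in control libraries and 5.64, 4.99 and 4.92 in knockdown libraries, a 3.62-fold rise (log2 fold change 1.56, SE 0.17, limma adjusted p = 7.55e-07). These stood for an estimated 28 to 49 and 112 to 222 reads, so this gene too is listed through the knockdown arm alone. ITGB1 itself was called higher by less, from 1474 ± 39.5 to 1975 ± 45.9 (log2 fold change 0.42). The ratio of lncRNA to ITGB1 rose by 1.14 log2 units (SE 0.16, limma adjusted p = 0.000653). Exons of the 2 genes share 42 bases, or 3.52% of those of the lncRNA.

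The other members with the largest increases rose by less than 2-fold. TMPO-AS1, opposite the gene for the nuclear lamina protein LAP2, was 4.10, 2.74 and 3.13 in control and 6.47, 6.60 and 6.27 in knockdown libraries (log2 fold change 0.88). PPP3CB-AS1, named after a calcineurin catalytic subunit, was 3.10, 2.74 and 2.28 in control and 4.66, 4.77 and 4.84 in knockdown libraries (0.72), while PPP3CB was not called (−0.09, adjusted p = 0.119 in limma). SUCLG2-DT, divergent from a succinyl-CoA ligase gene, was 7.81, 7.60 and 7.93 in control and 12.1, 12.7 and 12.4 in knockdown libraries (0.64). In each of these 3 the lowest knockdown library lay above the highest control library, which was a condition for naming a member by its change. PPP1R14B-AS1 (0.81), ANXA2R-OT1 (0.69), SGMS1-AS1 (0.68), THUMPD3-AS1 (0.63), PDCD6IP-DT (0.62), LIPT2-AS1 (0.60) and ZFAND2A-DT (0.59) also rose, with limma adjusted p from 6e-05 to 0.00378. Their partners have unlike roles, among them a phosphatase 1 inhibitor, a sphingomyelin synthase, the ESCRT adaptor ALIX and an arsenite-induced zinc finger protein. ANXA2R and LIPT2 were not among the listed genes. Of these 10 members, all but SUCLG2-DT and THUMPD3-AS1 are listed through the knockdown arm alone.

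BCAN-AS1 (chr1:156637783-156641004, minus strand), antisense to the gene for the matrix proteoglycan brevican, fell the most. It was 5.01, 4.27 and 4.38 in control and 0.636, 0.994 and 0.878 in knockdown libraries (5.45-fold lower, log2 fold change −1.93, SE 0.19, limma adjusted p = 3.15e-07). These stood for an estimated 99 to 163 and 20 to 31 reads, so the gene is listed through the control arm alone. No exon lies opposite this single-exon gene in GENCODE 29, and BCAN was not among the listed genes.

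FAM131B-AS2 (chr7:143379683-143381036) lies upstream of FAM131B on the same minus strand, in spite of its name, and starts 259 bases from ZYX on the plus strand. It was 27.5, 27.3 and 30.4 in control and 10.8, 8.56 and 9.44 in knockdown libraries (2.96-fold lower, log2 fold change −1.52, SE 0.09, limma adjusted p = 3.93e-10). FAM131B fell much more, from 59.0 ± 3.55 to 3.58 ± 0.682 (−3.88), so the ratio of lncRNA to FAM131B rose by 2.36 log2 units (SE 0.15, limma adjusted p = 1.67e-05). ZYX, whose product zyxin binds actin at focal adhesions, fell from 622 ± 23.6 to 178 ± 6.08 (−1.81). The ratio of the lncRNA to ZYX did not pass the test (0.29, SE 0.10, limma adjusted p = 0.0505). ZYX was picked after its value was seen, as the head-to-head neighbour of a named member.

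LOXL1-AS1 (chr15:73908071-73928248, minus strand) had the highest value of all members in the control libraries and fell 2.41-fold. LOXL1 encodes a lysyl oxidase that cross-links elastin. The antisense RNA was 208, 217 and 221 in control and 89.3, 91.4 and 86.7 in knockdown libraries (log2 fold change −1.27, SE 0.04, limma adjusted p = 1.18e-13). LOXL1 was 219, 225 and 223 in control and 131, 127 and 121 in knockdown libraries (−0.82, SE 0.04). The antisense RNA fell more than its partner (ratio −0.45, SE 0.06, limma adjusted p = 0.000637), and their exons share 335 bases, part of the 7.94% of the antisense RNA's exon bases that face another gene's exon.

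DDN-AS1, listed through the control arm alone, also fell by at least 2-fold. It was 6.65, 6.79 and 5.76 in control and 3.72, 3.11 and 1.94 in knockdown libraries (−1.04, limma adjusted p = 0.000108), with 48.8% of its exon bases opposite other exons. Among the genes it faces, DDN (dendrin) changed by −0.49, KMT2D, a histone H3K4 methyltransferase, by −0.81, and PRKAG1, an AMPK subunit, by 0.11 with no call.

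GABPB1-AS1 fell while its partner rose. It was 24.1, 24.6 and 26.3 in control and 13.4, 15.0 and 13.7 in knockdown libraries (log2 fold change −0.81, SE 0.07, limma adjusted p = 1.15e-07). GABPB1, which encodes a subunit of the ETS-family factor GABP, was 25.2, 26.4 and 23.8 in control and 30.6, 30.3 and 32.5 in knockdown libraries (0.30, SE 0.06). Other large decreases were in FOXD2-AS1 (−0.75), KTN1-AS1 (−0.71), TRIM52-AS1 (−0.67), TMEM161B-DT (−0.65), MCM3AP-AS1 (−0.62) and LIMD1-AS1 (−0.54). Their limma adjusted p ran from 8.29e-07 to 0.000369. Of their partners, KTN1, TRIM52 and TMEM161B were not called, MCM3AP (−0.25) and LIMD1 (−0.39) fell, and FOXD2 was not among the listed genes. FOXD2-AS1 is listed through the control arm alone.

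**Figure D2:**
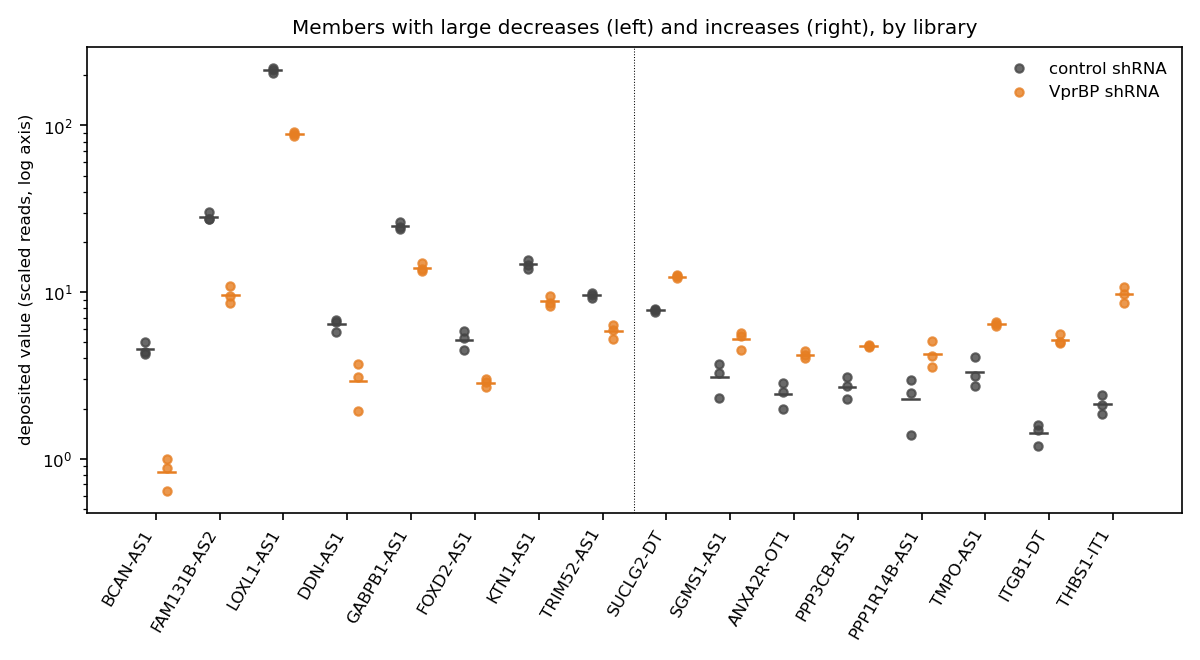
Deposited value (log axis) in each of the 3 control (grey) and 3 knockdown (orange) libraries for 8 members with large decreases, left of the dotted line, and 8 with the largest increases, right of it; short bars are group means. Only called members whose 2 groups do not overlap could be chosen, so the points are apart in all 16 by that choice.

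The 5 members with the highest mean values were OIP5-AS1, LOXL1-AS1, FGD5-AS1, PSMA3-AS1 and OTUD6B-AS1, and all were called. OIP5-AS1, a spliced cytoplasmic lncRNA also known as Cyrano, was 195, 205 and 194 in control and 153, 152 and 156 in knockdown libraries (log2 fold change −0.37, SE 0.04, limma adjusted p = 2.71e-07). OIP5, a centromere protein gene on the other strand, was called in the other direction (17.7 ± 0.802 to 21.9 ± 0.967, 0.30). FGD5-AS1 rose from 137 ± 1.78 to 165 ± 3.12 (0.27), PSMA3-AS1 from 62.0 ± 1.96 to 74.9 ± 2.05 (0.27) and OTUD6B-AS1 from 51.7 ± 1.52 to 61.0 ± 3.05 (0.24). The differences in OIP5-AS1 and these 3 were under 1.5-fold but larger than the spread between libraries.

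OIP5-AS1 is known for a site that pairs almost along its whole length with miR-7 and leads to the destruction of that microRNA. The microRNA was not measured here, and the site is shown because it is the best known function of an abundant member. The mature RefSeq sequence of miR-7-5p has its seed, bases 2 to 8, in capitals. The site lies in the GENCODE 29 transcript ENST00000500949.6, which has 8829 bases. Its bases that pair with the seed, in capitals, cover positions 2887 to 2893 of the transcript. Beyond the seed, 13 of the 14 microRNA positions from 10 to 23 pair with the site at a shift of 2 bases.
hsa-miR-7-5p: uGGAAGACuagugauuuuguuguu
OIP5-AS1 site: agaacaacaaaatcaccaatGTCTTCCa
Of the 10 annotated transcripts of OIP5-AS1, 2 hold a match to the seed, at 3 different sites in all. The deposited values are per gene, so they do not show which transcripts fell.

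The 6 members with the smallest changes, among those with a mean value of at least 5, were also named. IRX2-DT was 5.13 ± 0.373 in control and 5.12 ± 0.209 in knockdown libraries, while IRX2, a homeobox gene whose start lies 454 bases away, fell from 13.2 ± 0.498 to 8.54 ± 1.16 (log2 fold change −0.60). The ratio of that pair differed (0.60, SE 0.10, limma adjusted p = 0.00176). MUC20-OT1 was 21.0 ± 2.16 and 21.0 ± 0.837, and NUTM2B-AS1 was 42.2 ± 2.27 and 41.3 ± 2.21. SLC12A2-DT, divergent from the gene of a sodium, potassium and chloride cotransporter, was 32.0 ± 0.650 and 32.5 ± 2.31, and SLC12A2 was 65.9 ± 1.79 and 64.5 ± 1.54. ATXN1-AS1 and ZNF407-AS1 changed by −0.02 and 0.03. None of these 6 members passed the test, which their choice by smallest change made near certain.

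Members and partners were compared as pairs. Of the 136 pairs, 62 were head-to-head, on opposite strands with starts at most 1 kb apart, 71 overlapped on opposite strands, and 3 lay on the same strand. The suffix itself names a geometry, so the counts by suffix describe the naming. Of 43 divergent members with a listed partner, 38 were head-to-head, with a median of 232 bases between the starts of all 43 pairs. Of 91 antisense members, 24 were head-to-head and 66 overlapped, and the median distance between starts was 7481 bases. Per kb of exon, the member was lower than its partner in 110 of the 134 pairs with exon lengths, and the partner's level was 3.80 times the member's in the median pair. ITGB1-DT, for example, had a mean value of 2.77 per kb of exon and ITGB1 287. LOXL1-AS1 came close to its partner, with 36.0 against 47.9 per kb.

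**Figure D3:**
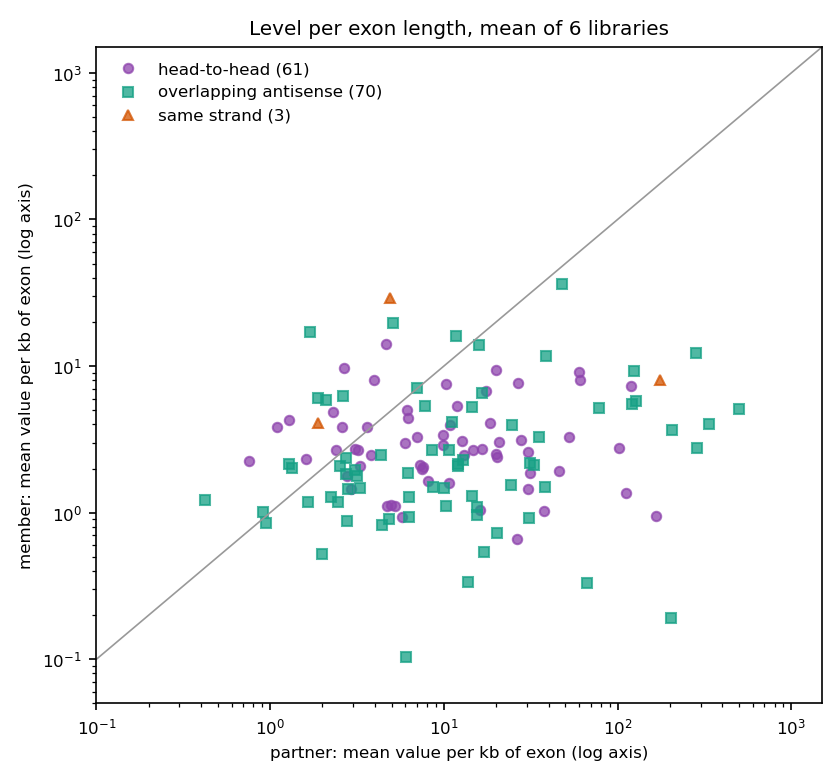
Mean value of 6 libraries per kb of exon (both axes log) for the member (vertical) against its partner (horizontal) in 134 pairs; colours and shapes give the geometry and the grey line marks equal levels. In 110 pairs the member lies below the line.

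In 34 pairs (25.0%) both genes were called in the same direction, 18 both higher and 16 both lower, and in 15 pairs (11%) they were called in opposite directions. Among 2091 other opposite-strand pairs of listed genes, 19.1% were called in the same direction and 14.8% in opposite directions. In 16 pairs only the member was called, in 40 only the partner, and in 31 neither. The partners gave 88 calls of 134 (65.7%), 45 higher and 43 lower, beside 60.9% of all genes and 62.4% of protein-coding genes. Across the 136 pairs the log2 fold changes of member and partner had a Pearson r of 0.50 and a Spearman rho of 0.30, as a description, since the genes come from the same 6 libraries. Pearson r was 0.18 in the 62 head-to-head and 0.37 in the 71 overlapping pairs, so the pooled value leans on the 3 same-strand pairs, THBS1-IT1 and FAM131B-AS2 among them. In the 2091 other opposite-strand pairs it was 0.11. The count of 15 fell to 6 without the first control library, 9 without the third control library, and 7 without either the first or the second knockdown library.

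**Figure D4:**
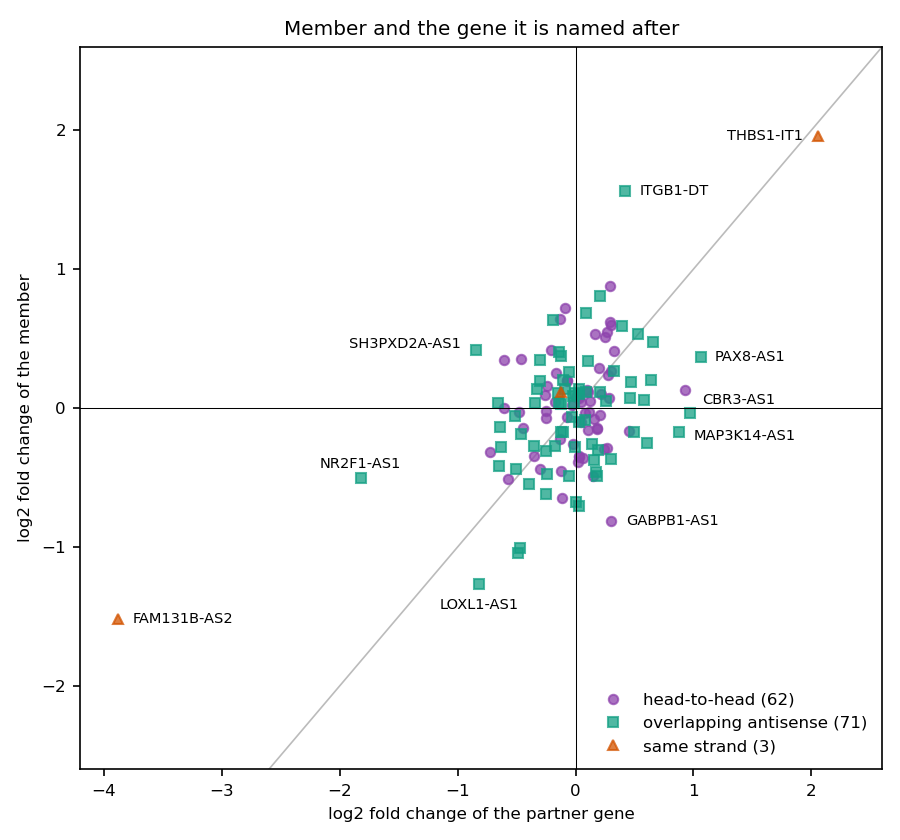
Log2 fold change of the member (vertical) against that of the gene it is named after (horizontal) for 136 pairs, by geometry; the grey line marks equal change. THBS1-IT1, FAM131B-AS2 and NR2F1-AS1 lie farthest from zero along the horizontal axis, and GABPB1-AS1 and SH3PXD2A-AS1 lie where the 2 genes differ in sign.

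The direction counts were also split by whether exons of the pair face each other, with no test of the split. In the 88 opposite-strand pairs that share exon bases, 22 were called in the same direction (25.0%) and 6 in opposite directions (6.82%). In the 43 that share none, 10 were called in the same direction (23.3%) and 9 in opposite directions (20.9%). For pairs without a member, this split was made only for head-to-head pairs. Of 365 such pairs with shared exon bases, 18.6% were called in the same direction and 12.3% in opposite directions. Of 534 without, the shares were 20.4% and 14.2%. The part of reads counted for both strands in these counts was not tested. Among overlapping pairs, 21 of 71 were called in the same direction (29.6%) and 7 in opposite directions (9.86%), beside 18.8% and 16% of 1159 other overlapping pairs.

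Pairs that fell together included genes of regulators. NR2F1-AS1 was 19.1, 20.3 and 18.0 in control and 13.9, 12.4 and 13.8 in knockdown libraries (log2 fold change −0.51, limma adjusted p = 5.26e-05). NR2F1, the nuclear receptor COUP-TFI, fell far more, from 223 ± 4.59 to 62.7 ± 4.07 (−1.82), and the ratio rose by 1.32 (SE 0.10, limma adjusted p = 3.33e-05). ELF3-AS1 (−0.44) fell with ELF3 (−0.51), which encodes an epithelial ETS factor. MNX1-AS1 (−0.51) fell with the homeobox gene MNX1 (−0.57), but the MNX1-AS1 libraries overlapped, and its limma adjusted p of 0.0212 became 0.0504 without the first control library, 0.0909 without the third, 0.0795 without the second knockdown library and 0.0729 without the third.

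Pairs that rose together included KRT7-AS and ADIRF-AS1 with their partners. KRT7-AS was 16, 17.4 and 18.6 in control and 23.5, 25.4 and 23.9 in knockdown libraries (0.48, limma adjusted p = 3.79e-05). KRT7, a keratin of simple epithelia, rose from 903 ± 14.5 to 1422 ± 43.1 (0.66), and the ratio did not differ (−0.18, SE 0.10, limma adjusted p = 0.158). ADIRF-AS1, listed through the knockdown arm alone, and ADIRF, an adipogenesis regulatory factor gene, rose by 0.53 each. KRT7-AS has 16.7% and ADIRF-AS1 16% of its exon bases opposite exons of other genes.

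Beyond GABPB1-AS1 and OIP5-AS1, the opposed pairs with the largest changes involved genes of unlike roles. SH3PXD2A-AS1 was 4.95, 4.01 and 4.21 in control and 6.36, 5.74 and 5.97 in knockdown libraries (0.42, limma adjusted p = 0.0107). SH3PXD2A, which encodes the podosome scaffold TKS5, fell from 41.5 ± 3.34 to 22.8 ± 0.562 (−0.85), and the pair shares no exon bases. MRPL20-AS1 fell (−0.30) and MRPL20, a mitochondrial ribosomal protein gene, rose (0.19). ST3GAL1-DT was called higher (0.34) and ST3GAL1, a sialyltransferase gene, lower (−0.61). EIF3J-DT (−0.29) and NUP50-DT (−0.29) were called lower while EIF3J (0.27), a translation initiation factor gene, and NUP50 (0.24), a nucleoporin gene, were called higher. RHPN1-AS1 was called higher (0.42) and RHPN1 lower (−0.21). The calls of these last 4 members rested on few libraries, and ST3GAL1-DT and RHPN1-AS1 are listed through the knockdown arm alone. The limma adjusted p of ST3GAL1-DT (0.0351) became 0.175 without the first control library and 0.0694 and 0.135 without the first and second knockdown libraries. That of EIF3J-DT (0.0386) held only without the third control library (0.0489), and ran from 0.0652 to 0.0935 without any of the other 5. That of NUP50-DT (0.021) became 0.112 and 0.0729 without the first and the third control libraries, and 0.0839 and 0.051 without the first and second knockdown libraries. RHPN1-AS1 (0.0328) went to 0.138 and 0.0994 without the first and second control libraries, and to 0.098 and 0.0891 without the second and the third knockdown libraries.

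The ratio of member to partner was tested in each library over all 2412 opposite-strand or member-partner pairs. It differed in 72 of 136 pairs (52.9%), 36 upward and 36 downward, beside 51.6% of all pairs tested. Beyond FAM131B-AS2, NR2F1-AS1, SH3PXD2A-AS1 (1.26), ITGB1-DT, GABPB1-AS1 (−1.12) and ST3GAL1-DT (0.95), the largest ratio changes were in MAP3K14-AS1 and CBR3-AS1. MAP3K14-AS1 was not called (9.92 ± 0.305 and 8.76 ± 0.949) while MAP3K14, which encodes the NF-kappaB-inducing kinase, rose from 17.4 ± 0.213 to 32.5 ± 2.12 (0.88). CBR3-AS1 was not called (4.61 ± 0.662 and 4.48 ± 0.562) while CBR3, a carbonyl reductase gene, rose from 13.3 ± 1.68 to 26.4 ± 0.298 (0.97). The ratio of member to partner fell by 1.05 (SE 0.07) and 1.01 (SE 0.09) log2 units in the 2 pairs.

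Members that share a promoter region with another gene were taken apart. Of the 62 head-to-head pairs with the named partner, 11 were called in the same direction and 8 in opposite directions (17.7% and 12.9%). Among 932 other head-to-head pairs, the shares were 19.5% and 13.3%. In another 21 pairs a member started within 1 kb of a gene it is not named after, and 5 of these were called in the same direction and 5 in opposite directions. Of all 83 head-to-head pairs, 16 were called in the same direction and 13 in opposite directions.

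The 10 pairs with a gene not in the member's name were picked after their values were seen. FAM131B-AS2 fell with ZYX, MRPL20-AS1 (−0.30) with the cyclin gene CCNL2 (−0.18), PM20D1-AS1 (−0.43, listed through the control arm alone) with the magnesium transporter gene SLC41A1 (−0.12), and ARRDC1-AS1 (−0.31) with the histone methyltransferase gene EHMT1 (−0.24). BAALC-AS1 (0.49, listed through the knockdown arm alone) rose with the Wnt receptor gene FZD6 (0.31). MCM3AP-AS1 was 20.2, 18.9 and 21.0 in control and 11.4, 14.3 and 13 in knockdown libraries (−0.62), while LSS, the lanosterol synthase gene of the cholesterol pathway, was 51.4, 50.3 and 53.7 in control and 75.5, 79.2 and 71.2 in knockdown libraries (0.53). Their starts are 372 bases apart. THUMPD3-AS1 (0.63) rose and SETD5 (−0.48), a SET-domain gene, fell, with starts 964 bases apart. PSMA3-AS1 (0.27) was opposed to ARID4A (−0.48), FGD5-AS1 (0.27) to NR2C2 (−0.17), and NOP14-AS1 (0.34) to MFSD10 (−0.40). MRPL20-AS1 was called in the same direction as CCNL2, whose start lies 180 bases away, and opposite to MRPL20, which it overlaps. A cause for this was not tested.

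**Figure D5:**
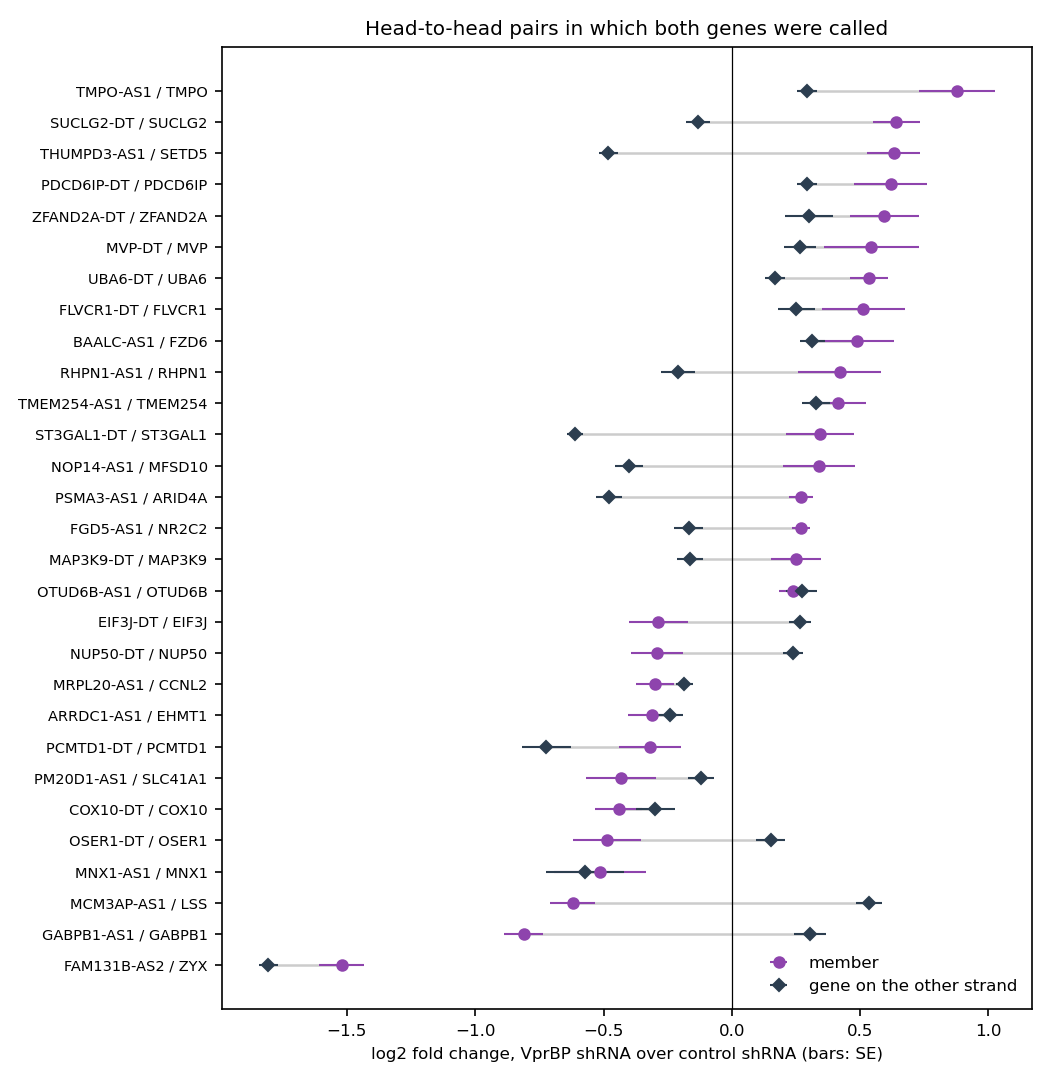
Log2 fold changes (bars are standard errors) of the member (purple circles) and of the gene whose start lies within 1 kb on the other strand (dark diamonds) in the 29 head-to-head pairs in which both were called. In 16 pairs the 2 symbols lie on the same side of zero and in 13 on opposite sides.

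The RefSeq promoter windows (GRCh38.p14, 250 bases before to 50 after the member's start, on the member's strand) of 4 head-to-head members follow, since each window holds the start of both genes of a pair. PDCD6IP-DT and COX10-DT moved with their partners, and SUCLG2-DT and NUP50-DT moved against them. All 4 were taken from pairs in which both genes were called, so pairs that moved together and apart are both there by choice. COX10-DT and OSER1-DT, below, were picked after their values were seen. Capitals mark matches on either strand to the GC box GGGCGG, to the CCAAT box, to the ETS motif CCGGAAGT or to the NRF1 motif GCGCATGC.
PDCD6IP-DT: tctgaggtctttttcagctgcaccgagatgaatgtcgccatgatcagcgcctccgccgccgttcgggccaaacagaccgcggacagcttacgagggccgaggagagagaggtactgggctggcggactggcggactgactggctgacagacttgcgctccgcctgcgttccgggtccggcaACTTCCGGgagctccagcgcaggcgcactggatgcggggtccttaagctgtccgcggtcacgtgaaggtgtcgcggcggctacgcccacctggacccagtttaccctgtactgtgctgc
COX10-DT: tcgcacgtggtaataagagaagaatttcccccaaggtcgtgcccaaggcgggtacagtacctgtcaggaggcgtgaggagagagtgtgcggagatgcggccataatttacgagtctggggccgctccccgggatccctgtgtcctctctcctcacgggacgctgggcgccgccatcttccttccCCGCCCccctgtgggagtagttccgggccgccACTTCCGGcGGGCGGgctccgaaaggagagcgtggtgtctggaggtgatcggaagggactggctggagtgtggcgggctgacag
SUCLG2-DT: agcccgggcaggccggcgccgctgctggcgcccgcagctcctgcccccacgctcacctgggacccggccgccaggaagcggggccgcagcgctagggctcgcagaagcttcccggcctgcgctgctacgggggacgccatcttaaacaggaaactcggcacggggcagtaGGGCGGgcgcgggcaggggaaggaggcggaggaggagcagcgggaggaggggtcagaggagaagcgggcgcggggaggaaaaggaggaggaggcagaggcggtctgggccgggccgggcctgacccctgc
NUP50-DT: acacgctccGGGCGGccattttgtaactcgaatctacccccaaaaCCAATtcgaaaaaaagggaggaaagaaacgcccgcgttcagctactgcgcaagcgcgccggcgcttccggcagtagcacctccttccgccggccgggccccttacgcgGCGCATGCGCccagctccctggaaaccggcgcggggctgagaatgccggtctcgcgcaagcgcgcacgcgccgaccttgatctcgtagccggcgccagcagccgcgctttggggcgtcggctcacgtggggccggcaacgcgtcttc
The windows are chr3:33798470-33798769 (minus strand), chr17:14069409-14069708 (minus strand), chr3:67654447-67654746 (plus strand) and chr22:45163732-45164031 (minus strand). By the deposited gene boundaries the partner starts 32, 5, 57 and 114 bases from the member. The PDCD6IP-DT window holds 1 ETS match, the COX10-DT window 1 ETS match and 2 GC boxes, the SUCLG2-DT window 1 GC box, and the NUP50-DT window 1 CCAAT box, 1 GC box and 2 overlapping NRF1 matches. A match is a description of the letters and not a binding site.

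The values of these pairs, which were chosen through their calls, follow. PDCD6IP-DT, listed through the knockdown arm alone, was 3.32, 3.54 and 3.92 in control and 6.0, 5.0 and 6.41 in knockdown libraries, and PDCD6IP was 131, 134 and 127 against 157, 156 and 167. Both rose, and the member rose more (ratio 0.33, SE 0.11, limma adjusted p = 0.0357). COX10-DT was 15.5, 14.4 and 14.6 against 9.58, 11.1 and 11.8 (−0.44), and COX10, which encodes the enzyme that makes haem O for cytochrome oxidase, was 28.8, 25.6 and 24.4 against 21.1, 19.8 and 22.9 (−0.30). Both fell, and their ratio did not differ (−0.14, SE 0.09, limma adjusted p = 0.206). SUCLG2 was 67.3, 68.4 and 64.8 against 58.7, 61.8 and 62.3 (−0.13, limma adjusted p = 0.0213), the reverse of SUCLG2-DT, with a ratio change of 0.77 (SE 0.07, limma adjusted p = 8.98e-05). NUP50-DT was 14.7, 11.4 and 14 against 10.1, 10.6 and 11.6, with 1 control library below the highest knockdown library. The ratio to NUP50 fell by 0.53 (SE 0.11, limma adjusted p = 0.00468). OSER1-DT (−0.49) and OSER1 (0.15), with starts 136 bases apart, were likewise opposed.

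Promoter windows were matched for 126 of the 161 members. Both strands of each 300-base window were searched for 8 motifs. GGGCGG was in 67.5% of member windows, 44.6% of all 27305 windows in the RefSeq table and 71.9% of those of listed genes. CCAAT was in 37.3%, 35.7% and 37.2%, CCGGAAGT in 6.35%, 4.44% and 9.51%, and GCGCATGC in 5.56%, 3.27% and 5.77%. The cyclic AMP response element TGACGTCA was in 2.38%, 1.98% and 3.40%, the TATA box TATAAA in 5.56%, 12% and 5.2%, the interferon response element core in 1.59%, 3.65% and 2.61%, and the BANP site in 0.794%, 0.469% and 0.998%. The median GC content was 68.0% in member windows and 65.7% in those of listed genes. The members' windows lay nearer those of the listed genes for the GC box, CCAAT, NRF1, TATA, interferon and BANP motifs. For the ETS motif and the cyclic AMP response element they lay nearer those of the whole table. These last 2 shares rest on 8 and 3 member windows. NRF1 and TATA matches were in 7 member windows each, the interferon core in 2 and the BANP site in 1. Among members matched in head-to-head pairs with the named partner, GGGCGG was in 6 of 9 called in the same direction and in 5 of 6 called in opposite directions.

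A list of 47 genes, all in the table, covered proteins that act in ending and degrading antisense and divergent transcripts, and U1 snRNP proteins. Of the 47 genes, 19 rose, 10 fell and 18 were not called (61.7% called, beside 60.9% of all genes). The median log2 fold change was 0.07. The U1 snRNP gene SNRPC was among the 19 (0.29), and the U1 genes SNRNP70 and SNRPA were not called. INTS7 of the Integrator complex was 34.1, 35.4 and 31.2 in control and 55.9, 51.5 and 57.3 in knockdown libraries (0.70, limma adjusted p = 5.1e-08). XRN2, the exonuclease of transcription termination, rose from 103 ± 3.68 to 147 ± 5.78 (0.51), and EXOSC9, an exosome core subunit, from 24.4 ± 0.950 to 31.2 ± 2.15 (0.35). ZFC3H1, the scaffold of PAXT, fell from 62.6 ± 0.570 to 45.1 ± 0.792 (−0.47). The Integrator subunits INTS1 (−0.40) and INTS9 (−0.28) also fell, and INTS9 lost its call without the second control library (−0.21, limma adjusted p = 0.0529). MTREX, the helicase shared by NEXT and PAXT, was not called (0.02, limma adjusted p = 0.721). These are RNA levels, and whether decay of the members changed was not measured.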

How the data were processed

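RNA-seq of PC3 cells was analysed, with 3 control shRNA and 3 VprBP shRNA libraries. The authors deposited 1 table of genes, titled as raw counts, which holds scaled signal values with decimals; per the submitters' processing notes Partek and hg38 were used, and no source used here gives the aligner, annotation or strand setting. The value of 1 read, found from the spacing of low values, was 0.0254 to 0.0439, and 55.0% to 64.8% of values were whole reads within 0.02 reads, so no count test was the main test, although the design had planned one for whole counts. limma 3.58.1 in R 4.3.3 was fitted to log2(value + 0.5) of all 12227 genes, with a mean-dependent prior, 3 libraries a group, Benjamini-Hochberg adjustment and a two-sided threshold of 0.05; the log2(value + 0.5) scale understates changes of low genes. Folds are ratios of mean deposited values. Pair ratios were fitted in the same way over 2412 pairs with starts at most 5 kb apart, overlapping spans, or a shared name. GENCODE 29 gave exons. The fits were tested on simulated data. Named members were those with the largest called changes among members whose groups did not overlap, the highest values, the largest pair effects or the smallest changes. The members and lists were chosen with earlier results of these data known. Alternatives were other pseudocounts, scalings, a filter, no mean-dependent prior, limma-voom on estimated reads, a replicate block and leaving out each library. Some named results are not reported here.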

Additional observations from a re-analysis of the deposited data

How the results depend on the processing

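Under 14 alternatives no called result for DCAF1 or a named gene changed direction, and the direction of other members was not followed. The counts that moved by over 1.5 times were members called higher and pairs called in opposite directions. Members called higher were 24 in place of 38 with genes under a mean value of 5 left out, where fewer members were tested. Pairs in opposite directions were 6 to 12 in place of 15 with single libraries left out, where fewer libraries were tested. Only some of these fits moved that count by over 1.5 times. Leaving out single libraries gave 30 to 35 members called higher, 33 to 39 called lower and 29 to 31 pairs in the same direction. Of 45 called results for named genes, 6 lost the call under at least 1 alternative: RHPN1-AS1, MNX1-AS1, EIF3J-DT, ST3GAL1-DT, NUP50-DT and INTS9. The signs that changed among the named genes were of 7 members with no call. SLC12A2-DT went to −0.0037 under library-size scaling and −0.0062 under median-ratio scaling, which moved the median of all genes by −0.02 each. With single libraries left out, SLC12A2-DT ran from −0.0118 to 0.0786, CBR3-AS1 from −0.1269 to 0.0687, IRX2-DT from −0.0488 to 0.0469, ATXN1-AS1 from −0.0777 to 0.0448, ZNF407-AS1 from −0.0277 to 0.0672, MUC20-OT1 from −0.0862 to 0.0476 and NUTM2B-AS1 from −0.0692 to 0.0153. Libraries with the same number did not deviate together (r = 0.02, −0.16 and −0.17), so the numbers do not pair them; with the number as a replicate block, 36 members were called higher and 40 lower, 33 pairs in the same and 12 in opposite directions, 72 pair ratios became 69, DCAF1 stayed at −0.97, and EIF3J-DT (−0.29) lost its call (limma adjusted p = 0.061). Depth limits the low members: over the members, the median of the lowest library was an estimated 143 reads.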
